A study of Mus musculus with 4 samples.

Results

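In the uterus of adult pseudopregnant and of postnatal day 12 (PD12) mice, 577 long stretches of chromatin carried elongating RNA polymerase II at both stages, over lengths that differed by less than 10 kb. They were chosen by the measured cover itself. The called POL2 intervals of the adult and PD12 lists were pooled and joined across gaps of up to 5 kb, which gave 11353 stretches, of which 1054 were 25 kb or longer. Kept were those in which both stages had POL2 cover and the covers differed by less than 10 kb. These 577 were 54.7% of the long stretches. Of the others, 368 had at least 10 kb more cover in the adult and 109 had at least 10 kb more at PD12. Among all 1054 long stretches, 45 had POL2 of a single stage.

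The 4 libraries were chromatin immunoprecipitations from whole uterus: FOXA2 and POL2 in the adult on days 2.5 and 3.5 of pseudopregnancy, and FOXA2 and POL2 at PD12. Each group had 1 library, both adult days are in the same library (how they were combined is not stated), and neither the mouse strain nor the number of animals is given in the sources used here. The POL2 antibody recognises the phosphorylated serine 2 of the polymerase's C-terminal repeat. The adult and PD12 lists held 14818 and 9972 POL2 intervals, which covered 95.2 and 70.4 Mb, and 10373 and 814 FOXA2 intervals. The lists give chromosome, start and end alone, so read depth and signal height are unknown, and every comparison of the stages is without replicates. In whole uterus, fewer cells with polymerase on a region and less polymerase per cell cannot be told apart.

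RNA polymerase II that is phosphorylated on serine 2 is the form that transcribes through the bodies of genes, and this mark becomes denser towards their ends. Wide intervals of it can span a long gene or a run of neighbouring genes. FOXA2, of the forkhead family, is made in the uterus by the glands, whose epithelium in the mouse forms by budding from the luminal epithelium after birth and secretes factors such as LIF in early pregnancy. Pseudopregnancy is the progesterone-dominated state that follows a sterile mating. The purpose of the series was a map of FOXA2 binding during gland development and in adult function, with POL2 mapped beside it.

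The build of the files is not named in the sources used here, and 260 intervals on 9 of 20 chromosomes started beyond the last gene of the GRCm38 table at hand, and 6 of the 577 stretches lay in such places. Positions are for that reason given as in the files, counted inclusively, and no gene, exon or promoter is assigned to a stretch. For the same reason whole uterus could not be checked against its marker genes, and no sequence is shown.

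The 577 stretches were 25 to 222.6 kb long, with a median of 34.0 kb and quartiles of 28.6 and 43.0 kb. Together they spanned 23.0 Mb and held 18.4% of all bases covered by POL2 at either stage. Adult POL2 covered 18.4 Mb of them, or 79.9% of their length, and PD12 POL2 covered 17.5 Mb, or 76.4%. Per stretch, adult cover was 8.2 to 191.8 kb (median 27.2 kb) and PD12 cover was 8.6 to 185.4 kb (median 25.6 kb). Adult cover was the greater in 352 stretches, PD12 cover was the greater in 217, and in 8 the 2 were equal to the base. The absolute difference had a median of 4.0 kb, and in 91 stretches it was 1 kb or less. Because the limit of 10 kb is absolute, the difference reached 38.1% of the length in the shorter stretches, while its median was 10.7%. In the stretches of 60 kb and more the median was 4.38%. The ratio of adult to PD12 cover ranged from 0.562 to 1.93, so equal cover is meant here in kilobases and not as a proportion. All of these values follow from the way the stretches were chosen and were not tested.

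**Figure D1:**
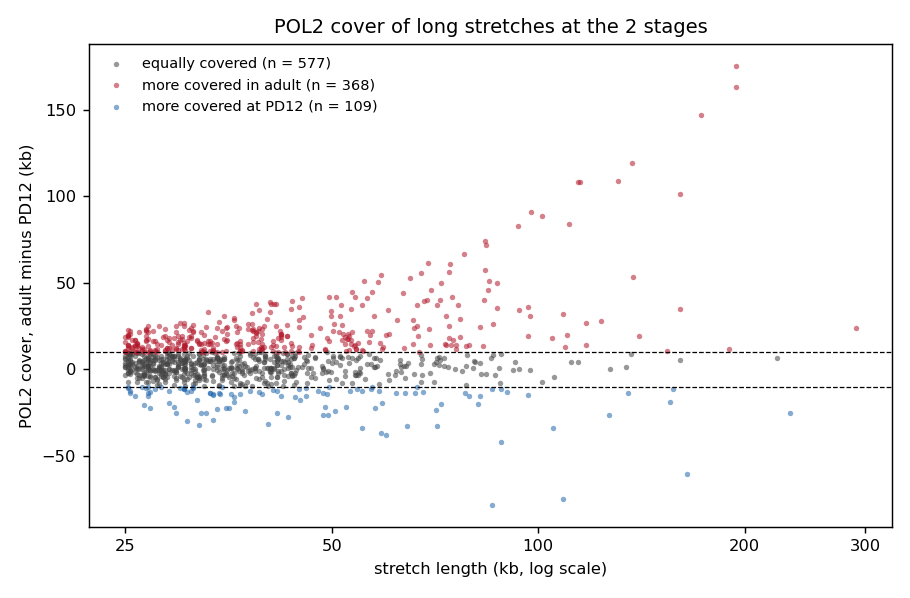
Difference of POL2 cover (adult minus PD12, kb) against stretch length (kb, log scale) for the 1054 long stretches, 1 point each; dashed lines mark the limits of 10 kb in either direction. The 577 equally covered stretches lie between the lines, with 368 above and 109 below.

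No gap in the values sets these stretches apart from their neighbours in size or difference. Exactly at the minimum length of 25 kb there were 8 stretches, and 7 more that met the other conditions were 24.8 kb long and fell outside. A stretch at the minimum was chromosome 10, 22410400 to 22435399, covered throughout in the adult and over 17.4 kb at PD12. One just under it was chromosome 11, 94793000 to 94817799, with an adult cover of 24.6 kb and a PD12 cover of 24.8 kb. At a difference of 9.8 kb there were 7 stretches, and at exactly 10 kb there were 16, which fell outside. Just inside was chromosome 4, 135874000 to 135923199, with an adult cover of 40.6 kb and a PD12 cover of 30.8 kb. Just outside was chromosome 8, 81857400 to 81924399, with an adult cover of 63.6 kb and a PD12 cover of 53.6 kb.

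The longest stretch was on chromosome 14, from 26271400 to 26493999 (222.6 kb). It was made of 16 adult intervals covering 191.8 kb and 7 PD12 intervals covering 185.4 kb, and both stages covered 160.4 kb of it. Its adult POL2 was thus in more pieces, with a break between 85.0 and 95.4 kb from its first base, whereas PD12 POL2 broke there between 92.6 and 102.6 kb. The next, on chromosome 8 from 34881600 to 35042399 (160.8 kb), had an adult cover of 153.4 kb and a PD12 cover of 148.0 kb, with no base left uncovered by both. The third, on chromosome 1 from 73947800 to 74084399 (136.6 kb), had an adult cover of 126.4 kb and a PD12 cover of 117.4 kb. Its 9.0 kb difference was the largest among the 10 longest.

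Agreement of the stages inside these very long stretches was uneven. On chromosome 3 from 122770400 to 122897799 (127.4 kb), covers of 122.6 kb in the adult and 122.2 kb at PD12 had 117.8 kb in common, and the outer ends lay 200 bp apart on both sides. A further equally covered stretch of the same chromosome, from 122904200 to 122939799, began 6.4 kb beyond it. On chromosome 16 from 14187400 to 14298999 (111.6 kb), the adult had 2 intervals, of which the wider was 98.2 kb, and PD12 had 5, and 104.6 kb was covered at both stages. The opposite form was seen on chromosome 18 from 69748600 to 69853999 (105.4 kb), with 5 adult intervals and 2 PD12 ones, of which the wider was 89.4 kb. On chromosome 18 from 4992200 to 5126399 (134.2 kb), by contrast, covers of 104.4 kb in the adult and 103.2 kb at PD12 shared 84.0 kb. The other members of the 10 longest were on chromosome 16 from 77591600 to 77705799, chromosome 10 from 5326800 to 5427999 and chromosome 4 from 43505000 to 43602199, with 68.5%, 86.2% and 73.3% of their covered bases shared.

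**Figure D2:**
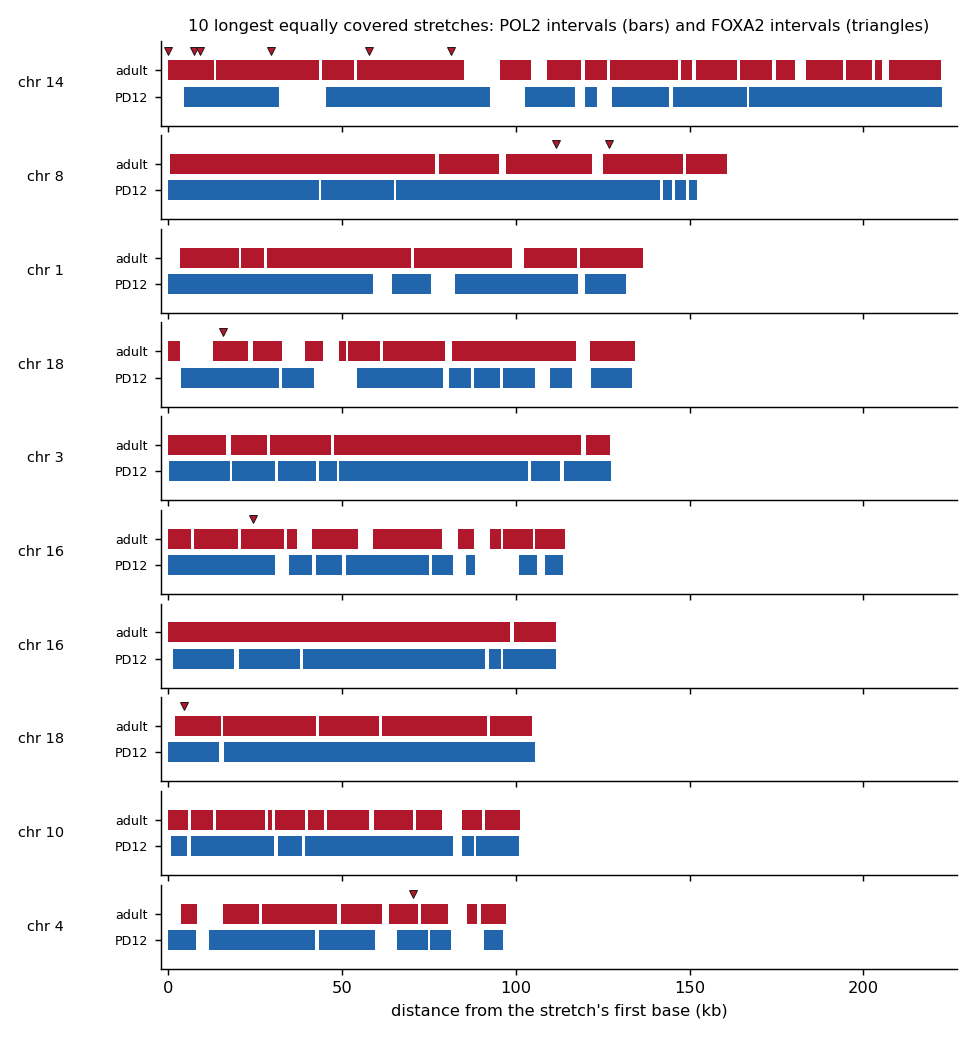
POL2 intervals (bars; adult above, PD12 below) and adult FOXA2 intervals (triangles) in the 10 longest equally covered stretches, longest at the top, against distance from the stretch's first base (kb); no PD12 FOXA2 interval lay in them. Both stages span each stretch nearly from end to end, and some of the breaks between intervals coincide while others fall in different places.

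Over all 577 stretches, 14.7 Mb was covered at both stages. This was 69.3% of the 21.2 Mb covered at either, 80.1% of the adult cover and 83.7% of the PD12 cover. Much of this overlap follows from the cover itself, which was 79.9% of the length in the adult and 76.4% at PD12. Whether the overlap exceeds what such cover gives was not tested. In the stretches more covered in the adult the same share of bases covered at either stage was 37.7%, and in those more covered at PD12 it was 49.7%, where a low share follows from the unequal cover. Stretch by stretch the share had a median of 68.1% and quartiles of 54.9% and 80.6%. It was 90% or more in 56 stretches and under 50% in 105. Longer stretches overlapped more completely, and the absolute limit on the difference allows a smaller part of a longer stretch to differ. The median was 64.9% in 189 stretches of 25 to 30 kb, 67.9% in 194 of 30 to 40 kb, 69.8% in 135 of 40 to 60 kb and 81.5% in 59 of 60 kb or more. Spearman's rho between length and shared percentage was 0.21 over the 577 stretches, which all come from the same pair of libraries, and it is given as a description.

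**Figure D3:**
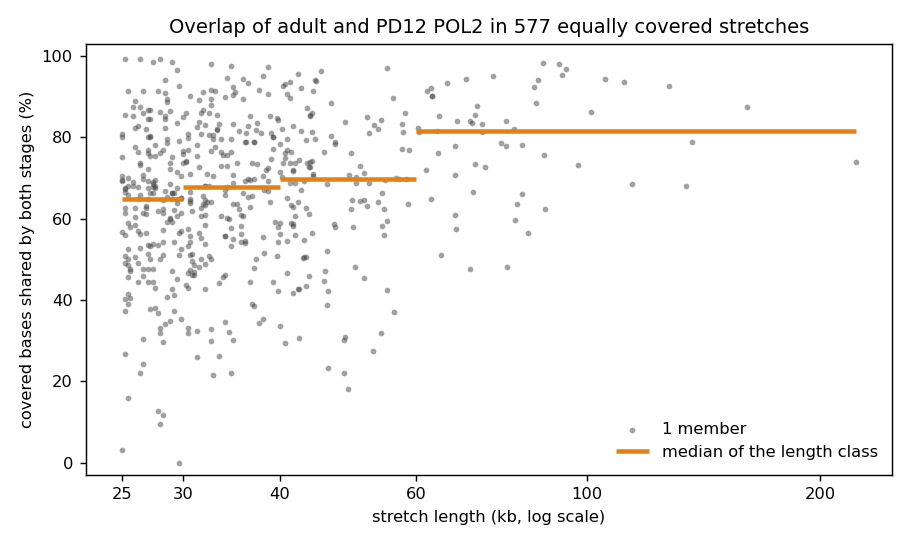
Percentage of covered bases that both stages covered against stretch length (kb, log scale), 1 point per stretch, with the median of each length class as a horizontal line. The medians go from 64.9% in the shortest class to 81.5% in the longest, and values under 25% occur in 13 stretches.

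The stretches with the most complete overlap were single intervals at each stage. On chromosome 11 from 55206000 to 55233999, the adult interval of 27.8 kb lay within a PD12 interval of 28 kb, with the same first base. On chromosome 10 from 44154000 to 44180399, the adult and PD12 intervals of 26.4 and 26.2 kb had the same last base. On chromosome 10 from 80244400 to 80273399, both intervals were 28.8 kb and were offset by 200 bp, which is the step of the grid on which all POL2 starts lie. Chromosome 11 from 51396200 to 51421399 and chromosome 12 from 8282200 to 8309599 completed this group of 5, with 99.2% and 98.5% shared. In all, 25 stretches had a single interval at each stage, with a median of 91.3% shared and a range of 29.8 to 99.3%.

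Equal cover did not always mean cover of the same bases. On chromosome 15 from 32225000 to 32254599, adult POL2 covered 8.2 kb and PD12 POL2 covered 14.6 kb, with no base in common. The adult interval lay in the middle of the stretch, between 15.0 and 23.2 kb from its first base, and the PD12 intervals lay on both sides of it. On chromosome 11 from 86755400 to 86780399, the adult had 13.6 kb at the outer parts and PD12 had 12.2 kb between them, with 0.8 kb in common. On chromosome 11 from 106929400 to 106957399 the stages shared 1.8 kb of an adult cover of 11.2 kb and a PD12 cover of 9.8 kb. The remaining 2 of the 5 with least overlap, on chromosome 13 from 104657400 to 104685599 and chromosome 4 from 140255000 to 140282799, shared 11.7% and 12.8%. In these 5 stretches the covers meet the absolute limit of 10 kb, but they lie mostly in different places. On chromosomes 15, 13 and 4 they differ by 6.4, 6.0 and 7.0 kb, 21.6%, 21.3% and 25.2% of the length.

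**Figure D4:**
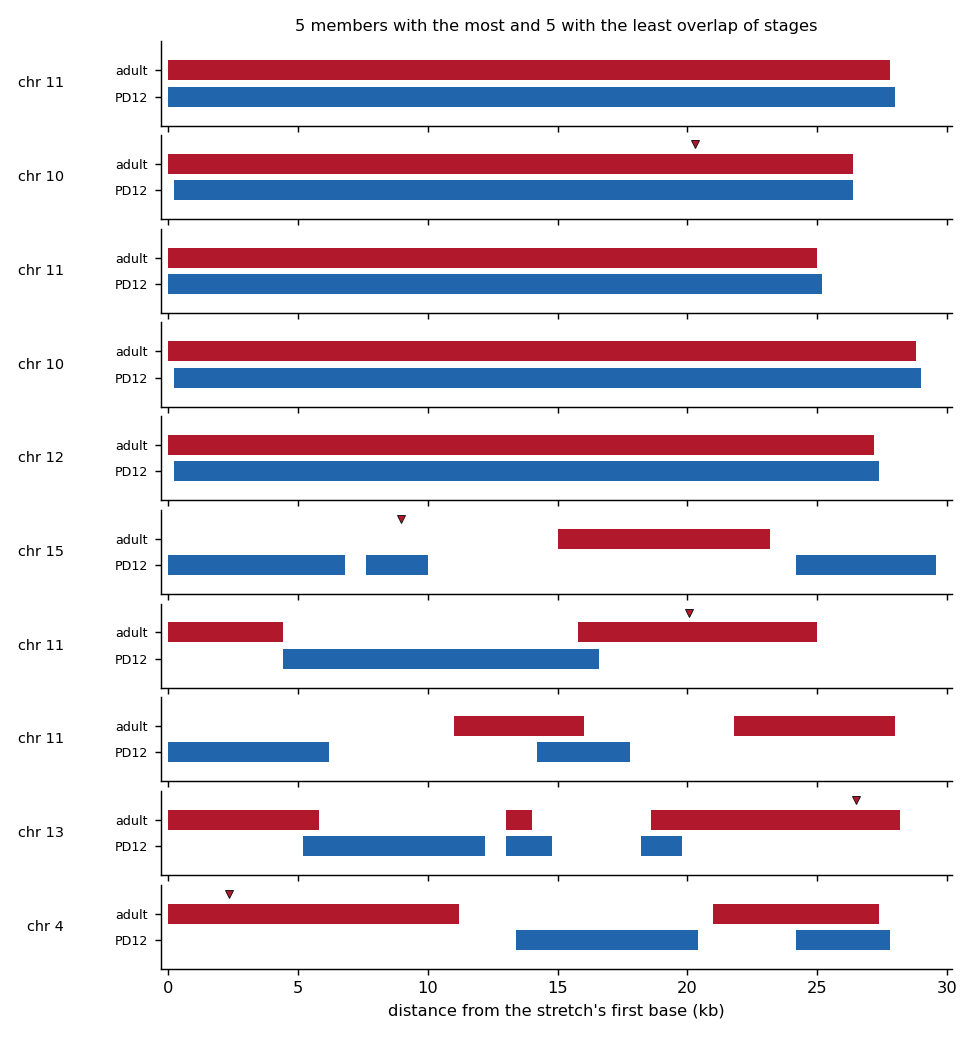
POL2 intervals (bars; adult above, PD12 below) and adult FOXA2 intervals (triangles) in the 5 stretches with the highest and the 5 with the lowest percentage of shared bases, against distance from the stretch's first base (kb). In the upper 5 the bars coincide to within 200 bp at both ends, and in the lower 5 they lie mostly in different places.

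The outer ends of the POL2 cover also differed between the stages. Adult and PD12 POL2 ended within 1 kb of each other on both sides in 114 stretches, on a single side in 262 and on neither side in 201. The median distance between the stages' outer ends was 1400 bp and the upper quartile was 4600 bp. Adult POL2 reached further at the lower coordinate in 312 stretches and PD12 POL2 in 226, and at the higher coordinate the counts were 309 and 240. The stretches were made of 1772 adult and 1590 PD12 intervals, a median of 3 for both stages. The adult had more intervals in 242 stretches, PD12 had more in 146 and the number was the same in 189. The widest single interval per stretch had a median of 16.0 kb in the adult and 15.8 kb at PD12. Bases covered at neither stage were absent from 130 stretches and came to 1.76 Mb over all 577.

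The equally covered stretches were found on every chromosome analysed, from 3 on X to 68 on chromosome 11, and chromosome 7 had 56. As a share of the long stretches of a chromosome they ranged from 37.5% on chromosome 6 (21 of 56, exact 95% binomial interval 24.9 to 51.5%) to 72.0% on chromosome 15 (36 of 50, 57.5 to 83.8%), against 54.7% over all. On chromosome 16 they were 27 of 38. The gap between neighbours on a chromosome had a median of 1142 kb. Of 557 neighbouring pairs, 44 were within 50 kb and 76 within 100 kb, and the closest, on chromosome 2 from 180388400 to 180428599 and from 180434400 to 180463599, were 5.8 kb apart.

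FOXA2 was not used to choose the stretches, so its position in them was not fixed by the rule. It comes from 1 library per stage, of the same tissue as POL2, and whether the FOXA2 and POL2 calls are independent was not tested. Adult FOXA2 intervals numbered 340 and lay in 259 of the 577 stretches (44.9%, exact 95% binomial interval 40.8 to 49.0%). This was close to the 44.3% of all long stretches. It was 42.9% (37.8 to 48.2%) in those more covered in the adult and 45.9% (36.3 to 55.7%) in those more covered at PD12. Over stretches of any length the share was 16.4%, and the stretches under 25 kb, which make up most of these, had a median length of 5.8 kb. PD12 FOXA2 intervals numbered 49 and lay in 46 stretches (7.97%, 5.90 to 10.5%), against 6.93% of all long stretches and 2.25% of all stretches. FOXA2 of both stages was listed in 36 stretches (6.24%, 4.41 to 8.53%), against 5.31% of all long stretches, and 308 stretches held none of either stage. These intervals and those on densities cover counting error alone, and differences between the classes of stretches were not tested.

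Per megabase of stretch, adult FOXA2 stood at 14.8 intervals (exact Poisson 95% interval 13.3 to 16.5) in equally covered stretches, 12.4 (10.8 to 14.1) in those more covered in the adult and 11.6 (8.97 to 14.7) in those more covered at PD12. PD12 FOXA2 stood at 2.13 (1.58 to 2.82), 1.03 (0.623 to 1.62) and 1.55 (0.711 to 2.95). Among the long stretches the equally covered ones thus had the highest value at each stage, but their limits overlapped those of both other classes. They were also shorter, with a median of 34 kb. It was 39.4 kb in the stretches more covered in the adult and 41.6 kb in those more covered at PD12. The classes were not compared at equal length. The stretches under 25 kb were above all 3 classes, at 20.2 per Mb for adult FOXA2 and 2.48 per Mb for PD12 FOXA2. Within the equally covered stretches adult density was 18.0 per Mb (14.6 to 22.1) at 25 to 30 kb and 11.1 (8.40 to 14.5) at 60 kb or more, so long stretches held more FOXA2 intervals each but fewer per megabase.

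Inside the stretches, adult FOXA2 was denser on bases with adult POL2 than on bases with PD12 POL2 alone. The centres of 339 of the 340 adult FOXA2 intervals lay inside. Overlap in whole tissue does not show that FOXA2 and POL2 were in the same cells. Where POL2 was listed at both stages, adult FOXA2 centres numbered 263, or 17.9 per Mb (15.8 to 20.2). On bases covered in the adult alone they numbered 58, or 15.8 per Mb (12.0 to 20.5). On bases covered at PD12 alone there were 13, or 4.56 per Mb (2.43 to 7.79), and on bases covered at neither stage there were 5, or 2.84 per Mb (0.921 to 6.62). The density on adult-alone bases was 3.48 times that on PD12-alone bases, with an exact 95% interval from the binomial split of the counts of 1.88 to 6.92. The same ratio was 2.94 (0.982 to 14.4) in the stretches more covered in the adult and 1.03 (0.114 to 4.41) in those more covered at PD12, with few centres behind each and limits that overlap, and the difference between the classes was not tested. Between bases covered at both stages and adult-alone bases the ratio was 1.13 (0.847 to 1.53). Adult FOXA2 density also changed with distance to the end of the stretch, and that distance was not held fixed in these ratios. Adult FOXA2 intervals in the stretches were wide, with a median of 906.5 bp against 680 bp for the rest of the adult list. Their median was 940 bp on bases covered at both stages and 867.5 bp on adult-alone bases. In the stretches more covered in the adult these medians were 818 and 773 bp. In those more covered at PD12 they were 893 and 998.5 bp, the latter from 2 centres. Wide adult FOXA2 intervals were thus not particular to the equally covered stretches. With the narrower 50% of the adult FOXA2 list, the densities were 3.20 per Mb at both stages, 4.37 (2.50 to 7.10) in the adult alone, 1.75 (0.569 to 4.09) at PD12 alone and 1.70 at neither, so the limits for adult-alone and PD12-alone bases then overlapped.

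PD12 FOXA2 was too sparse for the same comparison between stages. Its centres numbered 41 on bases covered at both stages, or 2.79 per Mb (2.00 to 3.79), 5 on adult-alone bases, or 1.37 per Mb (0.443 to 3.19), and 3 on PD12-alone bases, or 1.05 per Mb (0.217 to 3.07). None lay on the 1.76 Mb covered at neither stage, which allows up to 1.70 per Mb by a limit of 3 counts and 2.09 per Mb by the exact Poisson interval. The ratio of adult-alone to PD12-alone density was 1.30 (0.253 to 8.37).

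FOXA2 of both stages was denser towards the ends of the stretches. Adult FOXA2 centres stood at 32.9 per Mb (25.9 to 41.2) within 2 kb of an end, 16.8 (12.7 to 21.7) at 2 to 5 kb, 14.0 (11.1 to 17.4) at 5 to 10 kb and 10.8 (9.02 to 12.9) further inside. PD12 FOXA2 centres stood at 6.07 (3.32 to 10.2), 4.04 (2.21 to 6.78), 1.73 (0.831 to 3.19) and 0.962 (0.480 to 1.72). The density within 5 kb of an end was 1.95 times (1.56 to 2.43) that of the interior in the adult and 3.97 times (2.18 to 7.36) at PD12. On bases that both stages covered, the same ratios were 2.04 (1.56 to 2.65) in the adult and 5.09 (2.63 to 10.02) at PD12. For adult FOXA2 the ratio of end to interior over all bases was 2.43 (1.84 to 3.20) in the stretches more covered in the adult. It was 2.98 (1.76 to 5.002) in those more covered at PD12. The higher density of adult FOXA2 near the ends was thus seen in all 3 classes. For PD12 FOXA2 the ratio was 2.90 (1.01 to 7.92) in the stretches more covered in the adult. In those more covered at PD12 it was 2.16 (0.349 to 10.1), from 3 centres near an end and 6 in the interior, too few to tell.

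**Figure D5:**
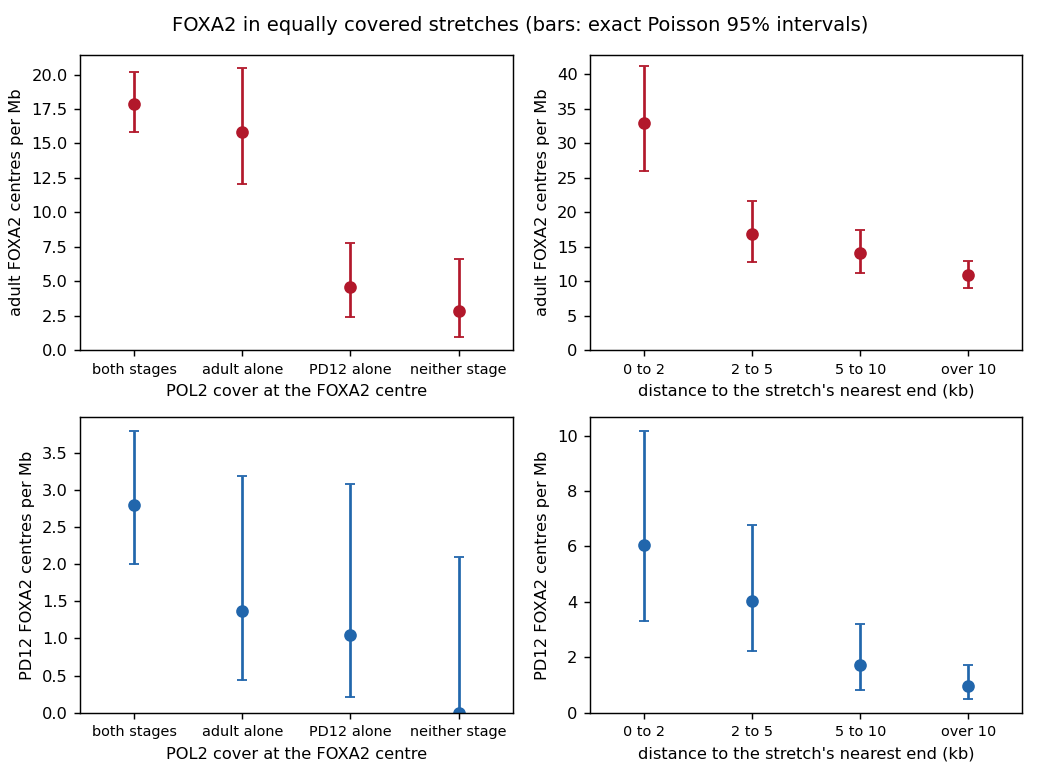
FOXA2 centres per Mb of equally covered stretch (points) with exact Poisson 95% intervals (bars), adult FOXA2 in the upper row and PD12 FOXA2 in the lower, by the POL2 cover at the centre (left) and by distance to the nearest end of the stretch in kb (right). Adult FOXA2 stood at 15.8 per Mb on adult-alone and 4.56 on PD12-alone bases, and both stages were highest within 2 kb of an end.

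Adult FOXA2 intervals were mostly single in a stretch: 201 stretches held 1, 41 held 2, 13 held 3, 3 held 4 and 1 held 6. The 6 were in the longest stretch, on chromosome 14, the lowest crossing its first base and the highest ending 81.8 kb from it, with 3 of them between 26270966 and 26281423. The densest was chromosome 5 from 65192800 to 65227399 (34.6 kb), a single POL2 interval of 34.2 kb at each stage with 33.8 kb shared. Its 4 adult FOXA2 intervals, 836 to 1337 bp wide, lay between 65193830 and 65203883, and no PD12 FOXA2 interval was listed there. The others with 4 were chromosome 7 from 52084200 to 52164599, where the widest adult FOXA2 interval was 2374 bp, and chromosome 9 from 61215800 to 61269799. Of the 13 stretches with 3, the longest was chromosome 18 from 6429800 to 6517999 (88.2 kb), with 3 adult FOXA2 intervals, an adult POL2 cover of 71.2 kb and a PD12 cover of 62.2 kb.

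The chromosome 9 stretch from 61215800 to 61269799 (54.0 kb) also held a PD12 FOXA2 interval, at 61225480 to 61225867, inside the adult interval at 61225471 to 61226304. POL2 covered 47.8 kb of it in the adult and 49.2 kb at PD12. Such coincidence was common, since 29 of the 49 PD12 FOXA2 intervals in the stretches (59.2%, 44.2 to 73.0%) overlapped an adult one. Elsewhere in the PD12 list it was 558 of 765 (72.9%, 69.6 to 76.1%), and the difference was not tested. Seen from the adult list, 29 of 340 (8.53%, 5.79 to 12.0%) coincided with PD12 FOXA2, against 5.55% (5.11 to 6.02%) of the other adult intervals.

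The longest stretch with PD12 FOXA2 was chromosome 9 from 72509200 to 72602999 (93.8 kb), a single adult POL2 interval of 92.4 kb beside 92.2 kb covered at PD12 in 3 intervals. Its PD12 FOXA2 interval, 72510914 to 72511175, lay 1.71 to 1.98 kb from the lower end, and no adult FOXA2 was listed in the stretch. This was 1 of 10 stretches with PD12 FOXA2 alone. On chromosome 15 from 77586600 to 77674199 (87.6 kb), with 87.4 kb of POL2 in the adult and 86.4 kb at PD12, FOXA2 was listed at the same place at both stages, at 77652253 to 77653067 in the adult and 77652549 to 77652793 at PD12. On chromosome 11 from 98601600 to 98680399 (78.8 kb), with an adult cover of 58.2 kb and a PD12 cover of 50 kb, the coinciding intervals, at 98611865 to 98612814 in the adult and 98612098 to 98612418 at PD12, lay on POL2 of PD12 alone. On chromosome 17 from 34045400 to 34096199 (50.8 kb), the adult FOXA2 interval at 34076770 to 34077734 and the PD12 one at 34092278 to 34092729 lay apart. The other stretches among the 10 longest with PD12 FOXA2 were on chromosomes 18, 10, 4, 11 and 1, 50 to 71.6 kb long. In those on chromosomes 18, 10 and 11 the stages' FOXA2 intervals overlapped, and in those on chromosomes 4 and 1 no adult FOXA2 interval was listed.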

How the data were processed

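Tissue was fixed, sonicated and precipitated with a goat anti-FOXA2 or a rabbit anti-POL2 (phospho-serine 2) antibody, per the labels' protocols, and reads were aligned with BWA, per the submitters' processing notes. Which caller and threshold gave the intervals, whether input was subtracted, and which build was used are, in the sources used here, not given. The deposited lists hold start and end positions in bp, per the file headers, and no score, so depth per library is unknown and a wider or narrower call by the authors would change every cover. Intervals were joined, and cover, shared bases and FOXA2 overlap (1 bp or more) were counted, with Python 3.11.15, numpy 2.4.6, pandas 2.3.3, scipy 1.17.1 and matplotlib 3.10.9. Shares have exact (Clopper-Pearson) and densities exact Poisson 95% intervals, and a density with no centre is also given a limit of 3 counts. Joining and cover matched a per-base count on 20 of 20 simulated lists. The stretches, the lists and the tests were chosen with earlier results of these data known. With 1 library per group no test between stages was made. Stretches named are the 10 longest, the 5 with the most and the 5 with the least shared bases, the 5 with the most adult FOXA2 intervals, the 10 longest with PD12 FOXA2 and those nearest the limits, with ties settled by length. Of the 5 with the smallest and the 5 with the largest difference, those not in another group are given among the closing observations. The gene lists of the plan and sequences were not used, for want of an annotation of the files' build.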

Additional observations from a re-analysis of the deposited data

How the results depend on the processing

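Of 45 alternative values for 10 results, 28 lay inside the reported value's 95% interval (for the number of stretches, within 1.5 times) and 17 outside. For shared bases that interval, 69.0 to 69.6%, treats neighbouring steps of 200 bp as independent and is too narrow, so lying outside it says little there. The number of stretches, 577, was 341 with a difference under 5 kb and 194 with a minimum length of 40 kb. Within the limit of 1.5 times, it was 804 with gaps of 10 kb and 454 with gaps of 2 kb. With a difference under 20% of the length it was 500. The share of covered bases that both stages covered, 69.3%, was 73.2% with gaps of 2 kb, 63.4% with gaps of 10 kb, 72.9% at 40 kb and 71.7% under 5 kb. Stretches with adult FOXA2, 44.9%, were 50% at 40 kb, where adult density was 11.8 per Mb. With the widest 50% of each FOXA2 list, 36.7% held adult and 5.89% held PD12 FOXA2, at 11.8 and 1.52 per Mb. Adult FOXA2 density by POL2 cover, with its settings chosen after the data were seen, was 14.8 at both stages and 11.5 in the adult alone with the widest 50%, and 3.20, 4.37 and 1.75 at both stages, in the adult alone and at PD12 alone with the narrowest 50%. Fewer FOXA2 intervals enter with each reduced list. The limits of 5 kb and 40 kb each keep a part of the 577 stretches, so the number of stretches can only fall. The values at 40 kb are those of the longer stretches among the 577. For the other changes the cause was not tested. No paired analysis was possible because there was 1 library for each group.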

Other observations

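Equal cover to the base was seen in 8 stretches. The longest of them, on chromosome 1 from 71626200 to 71701799 (75.6 kb), had 73.8 kb covered at each stage, 72.0 kb of it in common, and an adult FOXA2 interval of 1103 bp near its higher end. On chromosome 17 from 56831400 to 56869599 (38.2 kb) the covers of 31.4 kb shared 25.2 kb, and on chromosome 6 from 149254000 to 149290999 (37.0 kb) the covers of 32.4 kb shared 28.6 kb. At the other limit, a difference of 9.8 kb, adult cover was the greater on chromosome 11 from 77498400 to 77537799 (32.6 kb in the adult, 22.8 kb at PD12) and on X from 35771000 to 35810199 (24.4 kb in the adult, 14.6 kb at PD12), and PD12 cover was the greater on chromosome 15 from 88979400 to 89017599 (23.0 kb in the adult, 32.8 kb at PD12) and on chromosome 14 from 27221800 to 27257799 (21.2 kb in the adult, 31.0 kb at PD12).

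Stretches that overlapped more completely between the stages held adult FOXA2 more often. It was listed in 53.6% (exact 95% binomial interval 46.6 to 60.6%) of the 207 stretches with 75% or more of covered bases shared, in 42.3% (36.2 to 48.5%) of the 265 with 50% to under 75%, and in 34.3% (25.3 to 44.2%) of the 105 with under 50%. The median length of these groups was 36.2, 34.0 and 31.0 kb, and the densities of adult FOXA2 were 16.3 (13.8 to 19.1), 14.2 (12.0 to 16.7) and 12.7 (9.28 to 16.9) per Mb, with overlapping limits. PD12 FOXA2 showed no such order, at 8.70%, 6.42% and 10.5% of the stretches. The difference between these groups was not tested.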
